A study of Homo sapiens with 45 samples.

Results

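The nonsense-mediated decay factors described here are 9 genes, UPF1, UPF2, UPF3A, UPF3B, SMG1, SMG5, SMG6, SMG8 and SMG9, taken by symbol from the UPF and SMG families among the 28278 gene names of the table of 8 RNA libraries. All 9 were counted in every RNA library, and all 9 were among the 13933 genes with enough reads to be tested. RNA was sequenced from cells of the established human line HCT116, which derives from a colon cancer, 72 h after transfection with 25 nM siRNA. Cells labelled siNTC5 (4 libraries) received a nontargeting control siRNA and cells labelled siHNRNPK (4 libraries) an siRNA against HNRNPK, which encodes an RNA-binding protein that prefers runs of cytosine. In each of these groups, replicates 1 and 2 were TruSeq libraries and replicates 3 and 4 were Ligation libraries, all from RNA purified with a Maxwell kit. A further 2 nontargeting libraries, labelled Scramble and numbered 5 and 6 here, were TruSeq libraries from RNA purified with a Qiagen kit and were deposited as separate count tables. Total counts ran from 12107280 to 15255556 in the siHNRNPK libraries and from 14810376 to 23633851 in the siNTC5 libraries, and the Scramble libraries, the deepest, had 59209169 and 55007171. Chromatin of the same cell line, also 72 h after 25 nM siRNA, was covered by 7 deposited lists of lamin B1 and histone mark domains. The cells had received control siRNA (labelled siControl) or siHNRNPK, with H3K9me2 in control cells only. ChIP samples had 3 replicates for each siRNA for lamin B1, H3K9me2 and H3K9me3 and 2 for H3K27me3, with inputs.

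Nonsense-mediated decay degrades mRNAs on which a ribosome terminates too early, commonly with an exon junction complex still bound downstream of the stop codon. UPF1 is the RNA helicase at the core of the pathway, UPF2 bridges UPF1 to the UPF3 proteins, and UPF3A and UPF3B are paralogs that contact the exon junction complex. SMG1 is the kinase that phosphorylates UPF1, and SMG8 and SMG9 bind SMG1 and restrain it. SMG5 and SMG6 bind phosphorylated UPF1, SMG5 as an adaptor to general mRNA decay and phosphatase activity and SMG6 as an endonuclease that cuts the target mRNA. Several mRNAs of these factors are themselves substrates of the pathway, which is known as a feedback that raises the factors when decay is slowed.

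Levels are given as normalised read counts (CPM, counts scaled to library size with TMM factors), and no level is compared between genes because transcript lengths were not used. Differences are log2 fold changes with the standard error (SE) of edgeR. The test was edgeR's quasi-likelihood test with a term for library kit, and p-values were adjusted by Benjamini-Hochberg over all genes tested. A gene is called changed at an adjusted p under 0.05. The labels do not say whether replicates were separate cultures, so p-values measure the spread between these libraries, which may be technical. In bulk RNA, fewer cells expressing a gene and less RNA per cell cannot be told apart.

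HNRNPK itself was 934, 967, 822 and 814 CPM in siNTC5 libraries 1 to 4 and 250, 223, 157 and 164 CPM in siHNRNPK libraries 1 to 4. The knockdown libraries held 22.4% of the control level (two-sided exact permutation p = 0.0286, the lowest possible with 4 libraries a group). The epithelial markers EPCAM, CDH1, KRT8, KRT18 and KRT19 were present in every library, with group means from 99.0 CPM (CDH1, siNTC5) to 2310 CPM (KRT8, siHNRNPK), while CEACAM5 had group means of 0.015 and 0.066 CPM. Of the markers of other cell types, the leukocyte genes CD3E and PTPRC had group means between 0 and 0.058 CPM. COL1A1, a collagen of fibroblasts, was at 60.1 CPM in siNTC5 and 97.6 CPM in siHNRNPK libraries, whereas COL3A1 stayed at or under 0.51 CPM in each of the 8 libraries. PECAM1 and VWF of endothelium and PDGFRB of mural cells had group means between 0.15 and 1.73 CPM. Of the 3 genes of other cell types that could be tested, COL1A1 and VWF were called higher in siHNRNPK libraries, and the part of these markers in the results was not tested.

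In the knockdown comparison all 9 factors passed, 6 higher (UPF1, UPF2, UPF3B, SMG1, SMG5 and SMG8) and 3 lower (UPF3A, SMG6 and SMG9) in siHNRNPK than in siNTC5 libraries. This count has a high background, since 71.5% of all 13933 genes were called, 35.5% higher and 36.1% lower. The groups did not overlap in CPM for any of the 9 factors, which held for 56.5% of all genes tested. The median absolute log2 fold change of the factors was 0.42, beside 0.41 over all genes tested. The sizes therefore separate the factors more than the calls do. UPF3A, UPF3B and SMG6 lay at the 84.1, 78.8 and 76.0 percentiles of absolute log2 fold change over all genes, and the other 6 factors lay between the 25.6 (SMG9) and 55.6 (SMG5) percentiles.

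**Figure D1:**
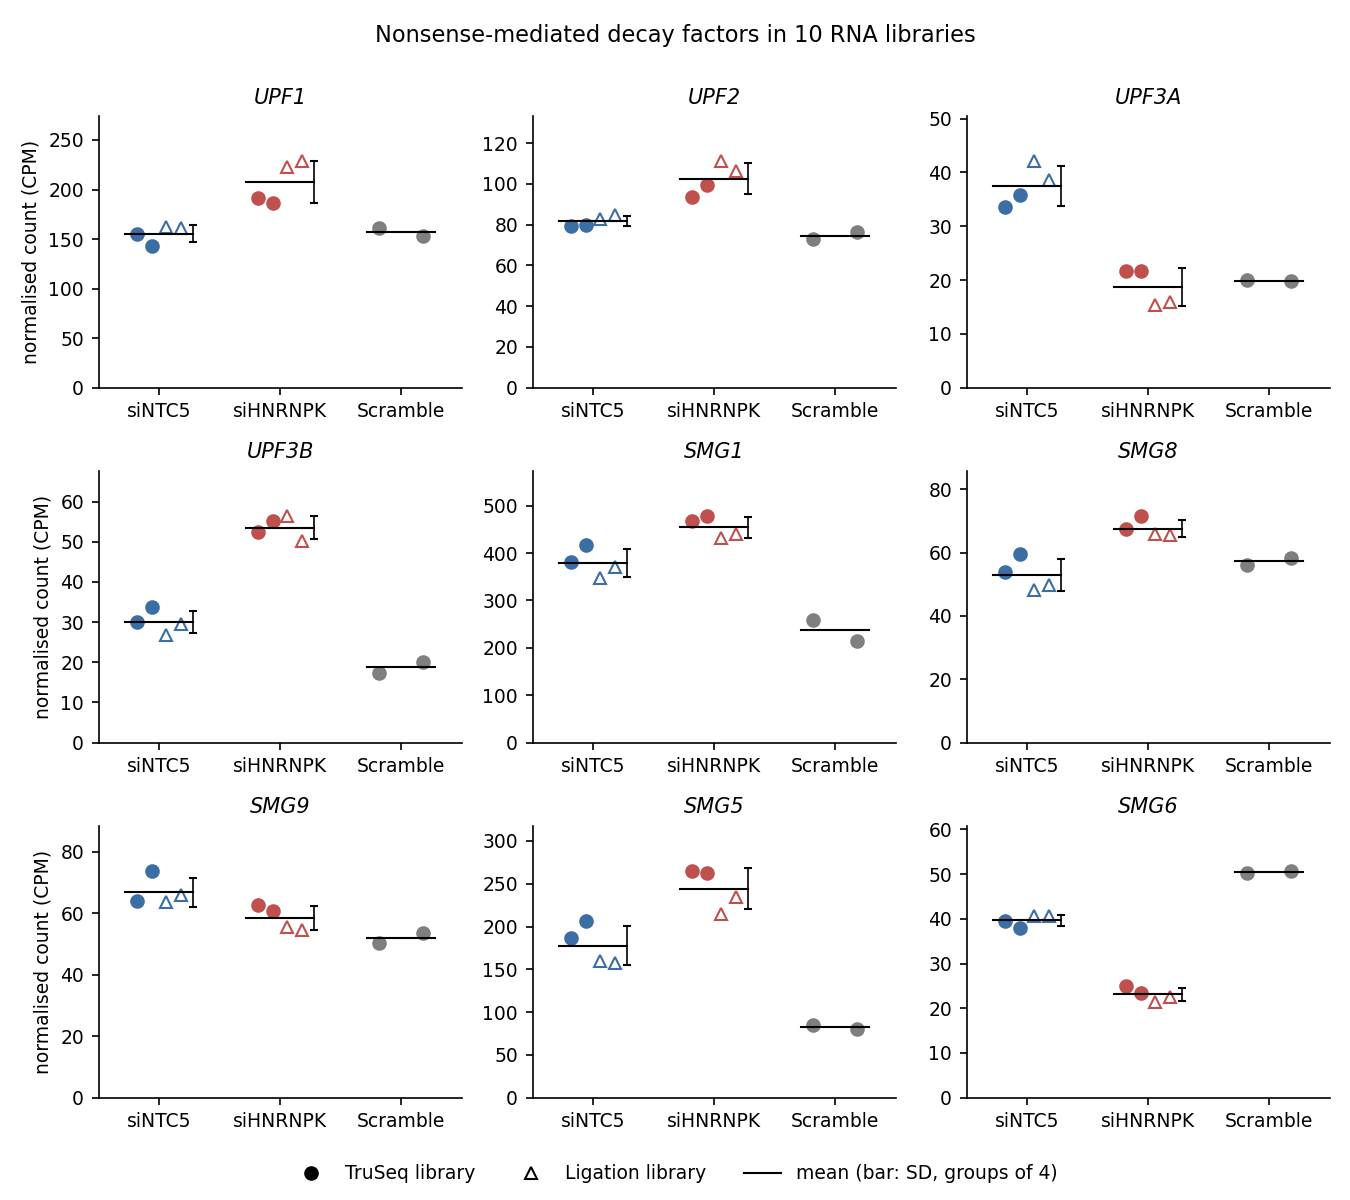
Normalised read count (CPM, y axis, from 0) of each of the 9 factors in the siNTC5, siHNRNPK and Scramble libraries (x axis), scaled over all 10 libraries. Filled circles are TruSeq and open triangles Ligation libraries, lines are group means and bars are the SD of groups of 4; the mean of UPF3B is 53.5 CPM in siHNRNPK and 30.0 CPM in siNTC5 libraries, and that of UPF3A is 18.6 and 37.5 CPM.

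Against siNTC5, the UPF3 paralogs moved in opposite directions after HNRNPK siRNA. Against Scramble, UPF3B was again higher (log2 fold change 1.52) but UPF3A was not lower (0.13, not called). UPF3A (chromosome 13, 114281601 to 114305817, plus strand, GRCh38) had 33.6, 35.8, 41.8 and 38.3 CPM in siNTC5 libraries 1 to 4. In siHNRNPK libraries 1 to 4 it had 21.7, 21.7, 15.3 and 16.0 CPM. Every knockdown library lay well below every siNTC5 library, and the Ligation knockdown libraries were the lowest. UPF3A fell by 1.00 ± 0.11 (SE) on the log2 scale, to 0.50 of its siNTC5 level (edgeR, Benjamini-Hochberg adjusted p = 1.03e-07). UPF3A has been described both as a weak activator and as a repressor of the pathway, and its protein is known to be stabilised by UPF2 that UPF3B does not occupy.

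UPF3B (chromosome X, 119805311 to 119852963, minus strand), the paralog with the stronger decay activity in most cells, had 30.2, 33.7, 26.7 and 29.2 CPM in siNTC5 libraries 1 to 4. It had 52.4, 55.2, 56.6 and 50.5 CPM in siHNRNPK libraries 1 to 4. All 4 knockdown libraries stood at 50.5 CPM or more and all 4 siNTC5 libraries at 33.7 CPM or less, and each kit alone gave the same picture. UPF3B rose by 0.84 ± 0.07 (SE) on the log2 scale, to 1.79 times its siNTC5 level (edgeR, Benjamini-Hochberg adjusted p = 3.69e-09).

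Taken within each library, the ratio of UPF3A to UPF3B counts needs no scaling between libraries. There were 1.11, 1.06, 1.57 and 1.31 UPF3A counts for each UPF3B count in siNTC5 libraries 1 to 4. The ratios were 0.414, 0.393, 0.271 and 0.316 in siHNRNPK libraries 1 to 4. The Scramble libraries gave 1.15 and 0.984. Both paralogs were lower there than in siNTC5, with log2 fold changes of -0.85 for UPF3A and -0.82 for UPF3B. UPF3A counts thus equalled or exceeded UPF3B counts in all siNTC5 libraries and in Scramble library 5, were nearly equal in Scramble library 6, and were under UPF3B counts in all siHNRNPK libraries. The ratio compares counts, which also depend on transcript length, so it is read between libraries only.

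**Figure D2:**
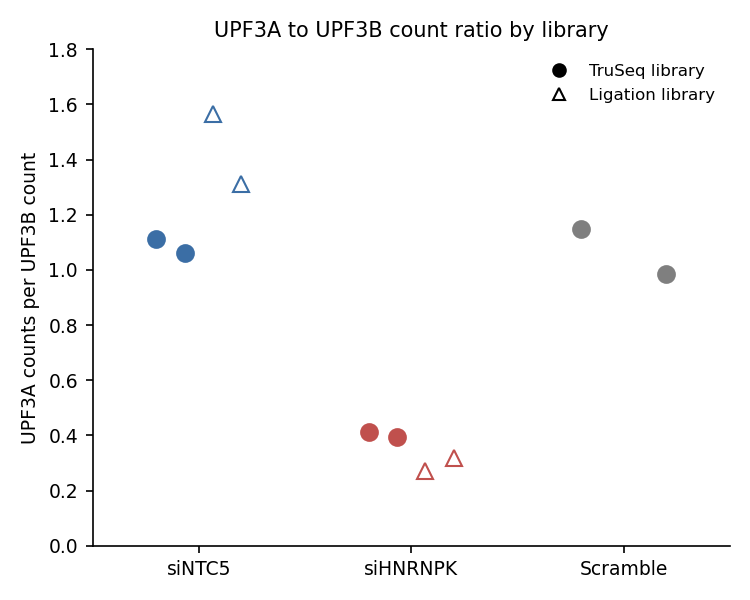
UPF3A counts per UPF3B count (y axis, from 0) in each of the 10 RNA libraries by group (x axis), circles for TruSeq and triangles for Ligation. The 4 siHNRNPK libraries lie between 0.271 and 0.414, and the 6 control libraries of both kinds between 0.984 and 1.57.

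UPF1 (chromosome 19, 18831959 to 18868230, plus strand), the helicase, had 156, 143, 161 and 160 CPM in siNTC5 libraries 1 to 4. It had 192, 187, 223 and 230 CPM in siHNRNPK libraries 1 to 4. The groups did not overlap, and the Ligation knockdown libraries were the highest. Its log2 fold change was 0.42 ± 0.05 (SE; edgeR, Benjamini-Hochberg adjusted p = 1.76e-07). UPF2 (chromosome 10, 11920022 to 12043170, minus strand), the bridging factor, had 79.7, 79.7, 82.5 and 84.0 CPM in siNTC5 libraries 1 to 4. In siHNRNPK libraries 1 to 4 it had 93.9, 99.4, 112 and 107 CPM. The lowest knockdown library, at 93.9 CPM, stood above the highest siNTC5 library, at 84.0 CPM, and the log2 fold change of UPF2 was 0.33 ± 0.05 (SE; edgeR, Benjamini-Hochberg adjusted p = 4.97e-06).

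The kinase SMG1 and its partners SMG8 and SMG9 did not move together against siNTC5. Against Scramble, SMG1 (1.00), SMG8 (0.29) and SMG9 (0.25) were all higher in siHNRNPK libraries by these log2 fold changes. SMG1 (chromosome 16, 18804860 to 18926408, minus strand) had 382, 417, 345 and 369 CPM in siNTC5 libraries 1 to 4 and 469, 477, 433 and 443 CPM in siHNRNPK libraries 1 to 4. The gap between the groups was small for SMG1, from 417 to 433 CPM. SMG8 (chromosome 17, 59210035 to 59215230) had 54.0, 59.4, 48.0 and 49.4 CPM in siNTC5 and 67.7, 71.4, 66.1 and 66.0 CPM in siHNRNPK libraries 1 to 4, with no overlap. SMG9 (chromosome 19, 43727983 to 43754962, minus strand) had 64.0, 73.5, 63.2 and 65.4 CPM in siNTC5 and 62.6, 60.5, 55.7 and 54.9 CPM in siHNRNPK libraries 1 to 4. For SMG9 the highest knockdown library and the lowest siNTC5 library were nearly level. The log2 fold changes were 0.27 ± 0.04 (SE) for SMG1 and 0.36 ± 0.06 (SE) for SMG8, with Benjamini-Hochberg adjusted p of 1.45e-05 and 1.42e-05 in edgeR. SMG9 fell by 0.19 ± 0.06 (SE) on the log2 scale (edgeR, Benjamini-Hochberg adjusted p = 0.0059), the smallest change among the 9 factors. Within the TruSeq libraries alone its log2 fold change was -0.16 with an adjusted p of 0.134 (edgeR).

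SMG1 has near-identical copies on chromosome 16, the SMG1P pseudogenes, and reads can be divided between them. Of 7 listed pseudogenes 6 were counted, each at 0.34 to 9.80 CPM in the 8 libraries. One, SMG1P7, was called lower, with a log2 fold change of -0.94 ± 0.22 (SE; edgeR, Benjamini-Hochberg adjusted p = 0.00105), and the others were not called. SMG1P7 went from 1.84, 2.17, 2.93 and 2.68 CPM in siNTC5 to 1.05, 1.19, 1.60 and 1.15 CPM in siHNRNPK libraries 1 to 4.

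The adaptor SMG5 and the endonuclease SMG6, which act on the same phosphorylated UPF1, moved in opposite directions. SMG5 (chromosome 1, 156249224 to 156291516, minus strand) had 187, 206, 159 and 157 CPM in siNTC5 libraries 1 to 4. It had 265, 262, 216 and 236 CPM in siHNRNPK libraries 1 to 4. The TruSeq libraries were higher than the Ligation libraries in both groups, and no knockdown library reached down to the siNTC5 range. SMG5 had a log2 fold change of 0.47 ± 0.05 (SE; edgeR, Benjamini-Hochberg adjusted p = 3.84e-08).

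SMG6 (chromosome 17, 2059839 to 2303785, minus strand) had 39.5, 38.0, 40.4 and 40.4 CPM in siNTC5 libraries 1 to 4. It had 25.1, 23.4, 21.6 and 22.6 CPM in siHNRNPK libraries 1 to 4. Replicates of SMG6 were tight, and the lowest siNTC5 library stood at 38.0 CPM where the highest knockdown library stood at 25.1 CPM. SMG6 fell by 0.77 ± 0.07 (SE) on the log2 scale, to 0.59 of its siNTC5 level (edgeR, Benjamini-Hochberg adjusted p = 1.35e-08). The SMG6 gene overlaps SRR on the opposite strand, with 39 to 186 counts in the 8 libraries, and HIC1, with 12 to 29 counts. SMG5 likewise overlaps TMEM79 on the opposite strand, with 67 to 122 counts. Both library kits keep strand, but the strand setting of the counting is not given in the sources used here.

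Promoters of the 3 factors with the largest differences are printed because the knocked-down protein is known to bind cytosine-rich strands. Each is the 250 bases before the outermost annotated start, on the strand of the gene, from RefSeq GRCh38.p14, with runs of at least 4 C or 4 G in capitals. The UPF3A window is chr13:114281351-114281600 (plus strand), the UPF3B window chrX:119852964-119853213 (minus strand) and the SMG6 window chr17:2303786-2304035 (minus strand).
UPF3A: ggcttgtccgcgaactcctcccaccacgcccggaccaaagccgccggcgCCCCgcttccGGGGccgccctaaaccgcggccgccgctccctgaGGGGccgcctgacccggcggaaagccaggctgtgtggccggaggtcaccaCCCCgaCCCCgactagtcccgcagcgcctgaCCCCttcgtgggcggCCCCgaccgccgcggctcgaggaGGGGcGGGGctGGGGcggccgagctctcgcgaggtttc
UPF3B: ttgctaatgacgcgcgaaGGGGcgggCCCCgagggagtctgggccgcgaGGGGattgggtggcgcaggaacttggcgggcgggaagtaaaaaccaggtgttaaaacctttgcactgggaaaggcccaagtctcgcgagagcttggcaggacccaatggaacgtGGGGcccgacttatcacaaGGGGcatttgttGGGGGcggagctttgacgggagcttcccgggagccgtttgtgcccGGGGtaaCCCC
SMG6: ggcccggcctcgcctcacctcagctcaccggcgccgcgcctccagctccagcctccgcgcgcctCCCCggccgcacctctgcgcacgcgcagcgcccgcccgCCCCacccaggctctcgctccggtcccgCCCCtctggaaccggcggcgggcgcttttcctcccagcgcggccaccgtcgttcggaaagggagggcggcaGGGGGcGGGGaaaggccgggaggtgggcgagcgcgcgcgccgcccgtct
UPF3A, which fell against siNTC5 but not against Scramble, held 5 C runs and 5 G runs at 76.8% GC. UPF3B, which rose, held 2 C runs and 6 G runs at 62.8% GC, and SMG6, which fell, held 3 C runs and 2 G runs at 79.6% GC. Windows were found for 8 of the 9 factors, all but SMG8, and held 4 to 10 runs. Over all 35116 windows of the same length 87.1% held at least 1 run, with a median of 3 and an interquartile range of 1 to 6. Those windows included every annotated start of a gene and were not matched for GC, whereas each factor gave 1 window. The runs were searched as CCCC or longer and GGGG or longer on the printed strand, and they describe letters in a window, not binding.

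All 9 differences had the same direction in both kits. In the TruSeq libraries alone 8 of 9 factors were called, where 57.8% of all genes were, and in the Ligation libraries alone 9 of 9, where 68.1% were. The UPF3A log2 fold change was -0.67 ± 0.11 (SE) in TruSeq and -1.36 ± 0.10 (SE) in Ligation libraries. UPF3B had 0.75 ± 0.09 (SE) in TruSeq and 0.92 ± 0.08 (SE) in Ligation libraries, and SMG6 had -0.67 ± 0.10 (SE) and -0.88 ± 0.09 (SE). HNRNPK itself was lower in the Ligation knockdown libraries, at 161 ± 5.03 CPM (SD, n = 2) beside 236 ± 19.6 CPM (SD, n = 2) in the TruSeq knockdown libraries. It was also lower in the Ligation siNTC5 libraries than in the TruSeq siNTC5 libraries, and its interaction of siRNA and kit was -0.34 ± 0.08 (SE) and not called (edgeR, Benjamini-Hochberg adjusted p = 0.1). The part of these differences in the UPF3A values was not tested.

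A test of the difference between the kits, the interaction of siRNA and kit, called none of the 9 factors in edgeR, while it called 0.129% of all genes. At an unadjusted p under 0.05 it marked 1 of 9, UPF3A, beside 1639 of 13933 genes, a similar share. The Wald test of DESeq2 called 0 of 9, beside 71 of 13933 genes, and gave UPF3A no adjusted p. The interaction of UPF3A was -0.67 ± 0.14 (SE) on the log2 scale with a Benjamini-Hochberg adjusted p of 0.0655 in edgeR. That value lay just outside the threshold. It moved across it to 0.0487 in edgeR under upper-quartile normalisation, where 21 of 13933 genes were called. With no filter on low counts it was 0.00422 in edgeR, where 239 of 21564 genes were called. Leaving out 1 library gave interactions of UPF3A from -0.76 to -0.63 on the log2 scale. Those fits leave 1 library in an arm, which is taken to vary like the others.

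Some factors differed between the kits. In both groups each replicate number was made with a single kit, so kit and replicate cannot be told apart here. In the same model 3 of 9 factors were called between Ligation and TruSeq libraries, beside 28.5% of all genes, of which 15.2% were higher and 13.2% lower in Ligation. UPF1 was higher in Ligation, with a log2 fold change of 0.18 ± 0.05 (SE; edgeR, Benjamini-Hochberg adjusted p = 0.00635). SMG1 (-0.14) and SMG5 (-0.27) were lower, with adjusted p of 0.0214 and 0.000284 in edgeR. Leaving out siNTC5 replicate 1 raised the count to 5, beside 4539 of 14092 genes. In the siNTC5 libraries alone the count was 1, beside 15.9% of all genes. In the siHNRNPK libraries alone it was 4, beside 23.2% of all genes. With both siRNAs, UPF3A, UPF3B and SMG6 differed by at most 0.10 in size on the log2 scale between the kits and were not called. UPF3A was called lower in Ligation in the siHNRNPK libraries alone, with a log2 fold change of -0.47 ± 0.13 (SE; edgeR, Benjamini-Hochberg adjusted p = 0.00193).

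**Figure D3:**
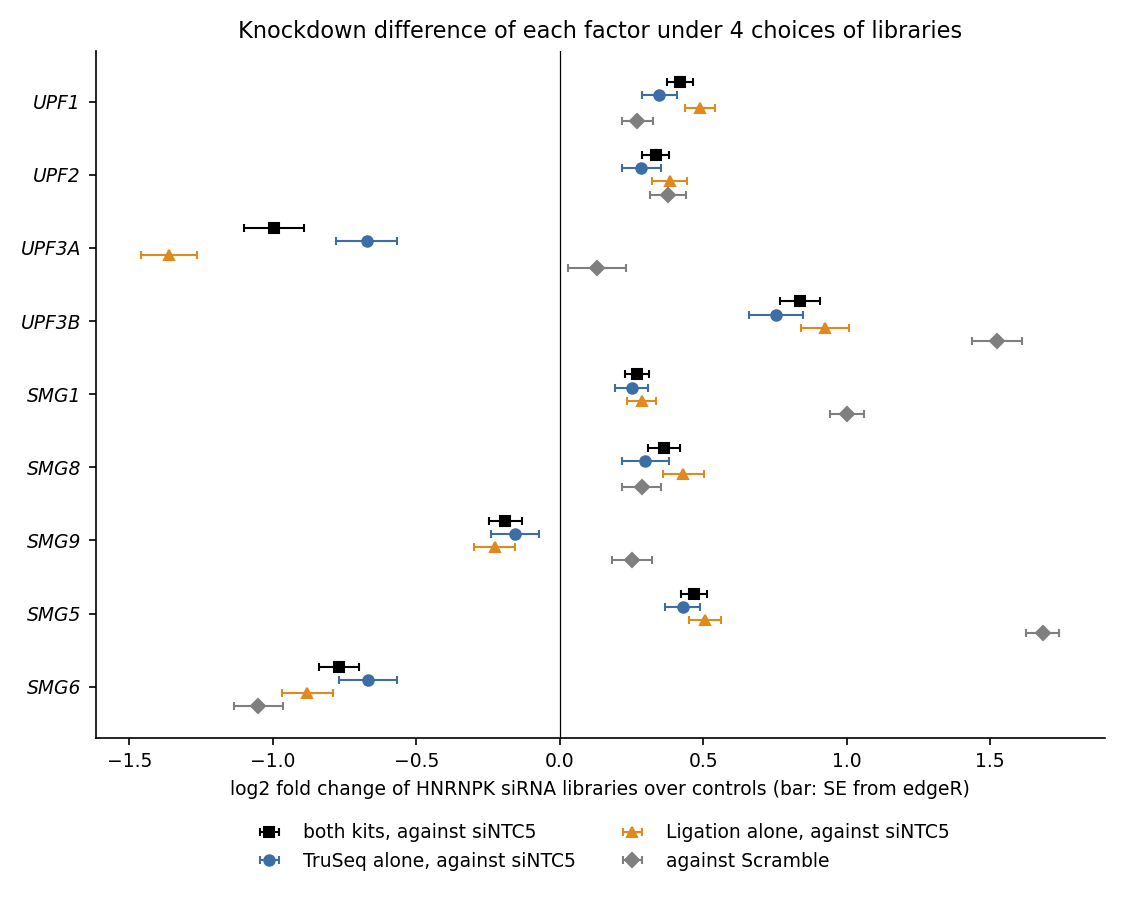
Log2 fold change (x axis; bars are the SE from edgeR) of siHNRNPK libraries over controls for each factor (y axis), against siNTC5 with both kits, with TruSeq or Ligation libraries alone, and against Scramble. UPF3A lies at -0.995 against siNTC5 and at 0.13 against Scramble, while UPF3B lies to the right and SMG6 to the left of 0 under every choice.

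The Scramble libraries are another set of nontargeting controls, and several factors differed between them and siNTC5. Of the 9 factors 6 were called between Scramble and siNTC5, 1 higher and 5 lower in Scramble, where 68.6% of 14263 genes were called, 35.1% higher and 33.5% lower. SMG5 was at 85.1 and 79.7 CPM in Scramble libraries 5 and 6 (CPM scaled over all 10 libraries), below every siNTC5 library. Its log2 fold change was -1.30 ± 0.06 (SE; edgeR, Benjamini-Hochberg adjusted p = 2.07e-09), the largest of the 9. SMG1, at 259 and 215 CPM, was also below every siNTC5 library, with a log2 fold change of -0.80 ± 0.08 (SE; edgeR, Benjamini-Hochberg adjusted p = 2.3e-06). Here siRNA, purification kit, depth and count table cannot be told apart.

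UPF3A was 19.9 and 19.8 CPM in the Scramble libraries, a log2 fold change of -0.85 ± 0.08 (SE) against siNTC5 (edgeR, Benjamini-Hochberg adjusted p = 1.62e-06). Those levels fall inside the range of the siHNRNPK libraries on the same scale. UPF3B was 17.4 and 20.1 CPM, below the siNTC5 libraries, where the knockdown libraries were above them (log2 fold change -0.82 ± 0.10, SE; edgeR, Benjamini-Hochberg adjusted p = 1.27e-05). SMG9 was 50.2 and 53.6 CPM, a log2 fold change of -0.46 ± 0.08 (SE; edgeR, Benjamini-Hochberg adjusted p = 0.000219). SMG6 was the factor higher in Scramble, at 50.2 and 50.6 CPM, with a log2 fold change of 0.33 ± 0.07 (SE; edgeR, Benjamini-Hochberg adjusted p = 0.00104). UPF1 (161 and 154 CPM) and SMG8 (56.2 and 58.2 CPM) lay within the siNTC5 range and were not called, with log2 fold changes of 0.03 and -0.04. UPF2, at 73.0 and 76.2 CPM, lay below every siNTC5 library but did not pass, with a log2 fold change of -0.14 ± 0.06 (SE; edgeR, Benjamini-Hochberg adjusted p = 0.0547). It passed under upper-quartile normalisation (-0.23, edgeR adjusted p = 0.00596) and with a mean of at least 50 counts (-0.17, edgeR adjusted p = 0.0231).

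With Scramble in place of siNTC5 as the control, 8 of 9 factors were called in the knockdown, beside 81.6% of all genes. UPF1 (0.27), UPF2 (0.38), UPF3B (1.52), SMG1 (1.00), SMG5 (1.68) and SMG8 (0.29) were again higher by these log2 fold changes, and SMG6 again lower (-1.05), in the same knockdown libraries. UPF3A and SMG9 did not keep their direction. The log2 fold change was 0.13 ± 0.10 (SE) for UPF3A (edgeR, adjusted p = 0.229) and 0.25 ± 0.07 (SE) for SMG9 (edgeR, adjusted p = 0.00165). The lower levels of UPF3A and SMG9 in the knockdown were differences from siNTC5 that were not seen against Scramble. With the Scramble libraries added to siNTC5 as controls, SMG1 (adjusted p 0.0686), SMG5 (0.0552) and SMG9 (0.559) no longer passed in edgeR, where 48.1% of all genes were called.

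In order of level, SMG6 ran from siHNRNPK through siNTC5 to Scramble without overlap between neighbours. UPF2, UPF3B, SMG1 and SMG5 ran from Scramble through siNTC5 to siHNRNPK, again without overlap, and SMG9 ran from Scramble through siHNRNPK to siNTC5. For UPF3A the Scramble and siHNRNPK libraries overlapped at the low end and siNTC5 was above both. UPF1 and SMG8 had siNTC5 and Scramble overlapping at the low end and siHNRNPK above both. The share of all genes with such orders was not counted, and siNTC5 and siHNRNPK alone did not overlap for 56.5% of genes tested.

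The count tables differ for the SMG1 copies. SMG1P3 had 6 to 16 counts in siNTC5 libraries and 870 and 751 counts in the Scramble libraries, and SMG1P1 had 21 to 41 counts and then 548 and 420. Of 25527 gene names shared by the tables, 184 had no counts in all 8 libraries and at least 100 in both Scramble libraries, and 2 had the opposite. The submitters' processing notes name hg38 for the 8 libraries, and hg19 and hg38 for the Scramble libraries. The part of the counting in the lower SMG1 value of the Scramble libraries was not tested.

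Genes whose course over the 8 libraries was most like that of the 2 factors with the largest differences were found by the root mean square difference of log2 CPM, centred on the siNTC5 mean, among 9998 genes. FAM234B (0.083), IRAK4 (0.097) and RPA3 (0.107) were nearest to UPF3A, with log2 fold changes of -1.08, -1.04 and -0.97. STEAP1 (0.051), DNTTIP2 (0.057) and ASAP1 (0.058) were nearest to UPF3B, with log2 fold changes of 0.84, 0.82 and 0.80.

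The genes around the 9 factors were then counted by role, beside the same background of 71.5% of all genes called and a median log2 fold change over all genes of -0.004. Among 11 tested genes of the exon junction complex and its periphery, 8 were higher and 2 lower, with a median log2 fold change of 0.52. PNN rose by 0.70 ± 0.04 (SE), CASC3, a core subunit, by 0.59 ± 0.05 (SE), MAGOH, a core subunit, by 0.58 ± 0.08 (SE) and CWC22, which loads the complex onto spliced mRNA, by 0.58 ± 0.06 (SE) on the log2 scale. Their Benjamini-Hochberg adjusted p in edgeR ran from 4.72e-11 (PNN) to 1.59e-06 (MAGOH). EIF4A3, the helicase that clamps the complex on RNA, was not called, with a log2 fold change of 0.09 ± 0.04 (SE; edgeR, Benjamini-Hochberg adjusted p = 0.0725). EIF4A3 was named after its value was seen. In the TruSeq libraries alone 7 of 11 were called, all higher, beside 57.8% of all genes, and in the Ligation libraries alone 9 were higher and 2 lower, beside 68.1%. Against Scramble 6 of the 11 were higher and 1 lower, beside 81.6% of all genes, with a median of 0.14. MAGOH was no longer called against Scramble, with a log2 fold change of 0.033 (edgeR, Benjamini-Hochberg adjusted p = 0.708), while PNN was at 1.8 and CWC22 at 0.41.

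Of 11 tested genes of translation termination, cap binding and other decay cofactors, 6 were higher and 4 lower, with a median of 0.17. MOV10, an RNA helicase that works with UPF1, fell by 0.61 ± 0.06 (SE) on the log2 scale, and PABPC1, the main cytoplasmic poly(A)-binding protein, rose by 0.52 ± 0.04 (SE). The subunits of the nuclear cap-binding complex diverged against siNTC5, NCBP1 at -0.41 ± 0.05 (SE) and NCBP2 at 0.36 ± 0.04 (SE), all 4 genes with adjusted p in edgeR between 4.8e-10 (PABPC1) and 1.54e-06 (NCBP1). Against Scramble both changed sign, to 0.28 for NCBP1 and -0.07 for NCBP2, and 5 of the 11 genes were higher and 3 lower, beside 81.6% of all genes. GSPT1, which encodes the release factor eRF3a and was named after its value was seen, had a log2 fold change of -0.02 ± 0.04 (SE) and was not called.

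Of 18 tested effectors of general mRNA decay, 9 were higher and 5 lower, with a median of 0.05. DIS3, a catalytic subunit of the exosome, rose by 0.72 ± 0.05 (SE) on the log2 scale, EDC3, an enhancer of decapping, by 0.50 ± 0.06 (SE), and CNOT6, a deadenylase of the CCR4-NOT complex, by 0.50 ± 0.04 (SE). DIS3L, the cytoplasmic relative of DIS3, had -0.36 ± 0.07 (SE), with adjusted p for the 4 from 9.02e-11 (DIS3) to 9.98e-05 (DIS3L) in edgeR. Against Scramble DIS3L changed sign, to 0.27, DIS3 was at 0.19, and CNOT6, at 0.11, was no longer called (edgeR, Benjamini-Hochberg adjusted p = 0.056). XRN1, the exonuclease acting from the 5′ end and named after its value was seen, fell by 0.20 ± 0.05 (SE) on the log2 scale (edgeR, Benjamini-Hochberg adjusted p = 0.00226).

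SMG1 belongs to the PIK-like kinases, whose stability is known to depend on the TELO2, TTI1 and TTI2 chaperone and the RUVBL1 and RUVBL2 ATPases. Of 12 tested kinases and assembly factors of this family 1 was higher and 10 lower, with a median of -0.23, while SMG1 itself rose. RUVBL1 fell by 0.69 ± 0.05 (SE) on the log2 scale (edgeR, Benjamini-Hochberg adjusted p = 1.71e-10) and MTOR by 0.39 ± 0.05 (SE; edgeR, Benjamini-Hochberg adjusted p = 4.52e-07). TTI1 was the one that rose, by 0.59 ± 0.06 (SE; edgeR, Benjamini-Hochberg adjusted p = 1.35e-07). TELO2 had -0.34 ± 0.11 (SE; edgeR, Benjamini-Hochberg adjusted p = 0.0126), from -0.67 in TruSeq and -0.04 in Ligation libraries alone. Against Scramble 5 of the 12 were higher and 4 lower, beside 81.6% of all genes called, with a median of 0.08, and MTOR (0.04) and TELO2 (0.07) changed sign.

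Of 16 transcripts described as substrates of nonsense-mediated decay, 13 were higher and 2 lower, with a median of 0.79. ATF3, a stress transcription factor, rose by 2.34 ± 0.07 (SE) on the log2 scale, DDIT3, which encodes CHOP, by 1.84 ± 0.10 (SE), UPP1, uridine phosphorylase, by 1.64 ± 0.10 (SE) and ZFAS1, a small nucleolar RNA host gene, by 1.42 ± 0.04 (SE). Their adjusted p in edgeR ran from 7.29e-15 (ATF3 and ZFAS1) to 5.9e-11 (UPP1). BAG1 (-0.66 ± 0.08, SE) and TRA2A (-0.48 ± 0.05, SE) were lower, and SRSF2 (0.05 ± 0.04, SE) was not called. BAG1, TRA2A and SRSF2 were named after their values were seen. Several of these genes, ATF3, ATF4 and DDIT3 among them, are also known targets of the integrated stress response, and transcription and decay cannot be told apart in counts of steady-state RNA.

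The substrate values also depended on the control. Against Scramble 9 of the 16 were higher and 3 lower, beside 81.6% of all genes called, with a median of 0.43. ATF3 was then 0.52 ± 0.06 (SE), UPP1 0.56 ± 0.11 (SE), ZFAS1 0.34 ± 0.05 (SE) and DDIT3 0.03 ± 0.07 (SE). The last did not pass (edgeR, Benjamini-Hochberg adjusted p = 0.695). With the Scramble libraries added to siNTC5 as controls, 7 of the 16 were higher and 1 lower, beside 48.1% of all genes called.

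**Figure D4:**
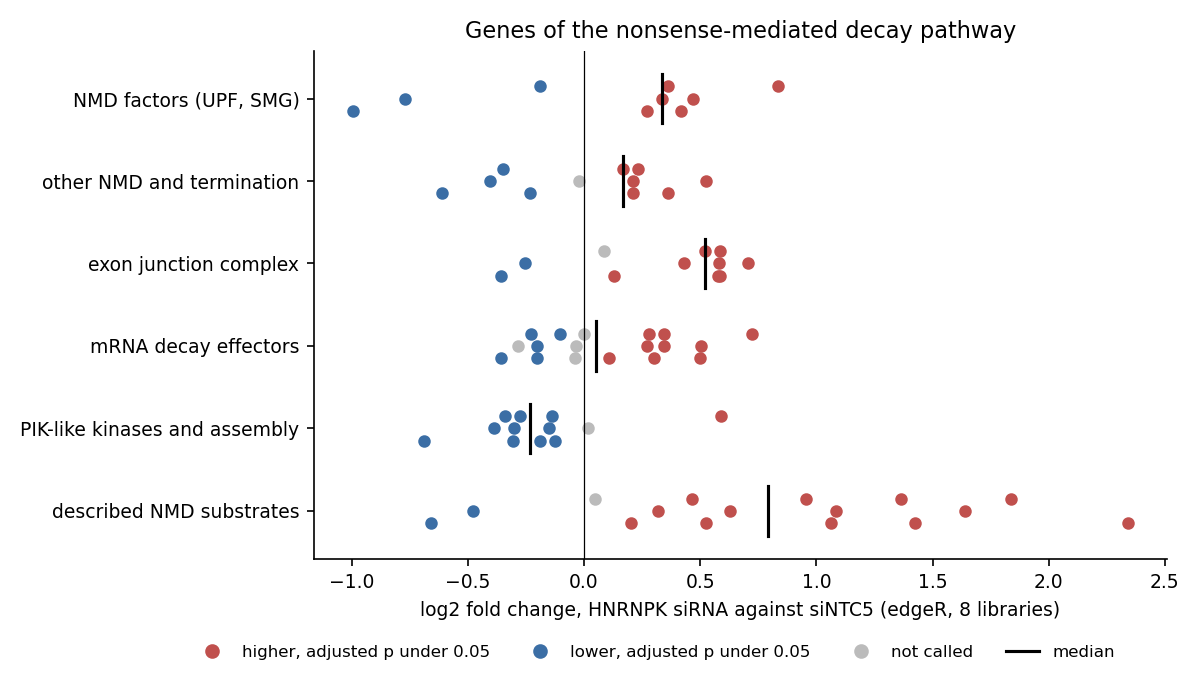
Log2 fold change of siHNRNPK against siNTC5 (x axis) for each tested gene of 6 groups (y axis), red where called higher, blue where called lower and grey where not called, with the median of each group as a bar. The described substrates reach 2.34 and have a median of 0.79, and 10 of the 12 PIK-like kinases and assembly genes are called lower.

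In chromatin, the 9 factor genes lay almost entirely outside the deposited domains. No factor gene had a base in the H3K27me3 or H3K9me3 lists of either siRNA, in the H3K9me2 list of control cells or in the control lamin B1 list. Over 19970 protein-coding genes, 24.6% overlapped the control H3K27me3 list, 7.17% the H3K9me2 list, 8.66% the control H3K9me3 list and 11.1% the control lamin B1 list. In the siHNRNPK lists these shares were 22.4% for H3K27me3, 14.4% for H3K9me3 and 7.79% for lamin B1. The shares were taken over protein-coding genes whatever their expression, and shares over expressed genes were not counted. The exception was SMG6, with 4.2% of its body in a domain of the siHNRNPK lamin B1 list on chromosome 17 from 1920001 to 2070000, with a score of 0.64 as the authors deposited it. That domain covers 10.2 kb at the 3′ end of SMG6, at the end away from the promoter printed above. The nearest domain of the control lamin B1 list was 701.2 kb from SMG6. The deposited lists are not split by ChIP replicate, so a domain present in 1 list and absent from the other has no replicate check.

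Control lamin B1 domains lay 70.0 to 1860.3 kb from the 9 factor genes, with a median of 898.5 kb. UPF3A lay 476.6 kb from the nearest control H3K27me3 domain and 1131.6 kb from the nearest in the knockdown list. UPF3B lay 107.0 kb from the nearest control H3K27me3 domain and 927.0 kb from the nearest in the knockdown list. SMG1 (59.9 and 469.9 kb) and SMG8 (94.8 and 900.0 kb) differed likewise, while UPF1 and SMG9 had the same distance in both lists. The median of the 9 factors was 411.2 kb in the control list and 778.5 kb in the knockdown list. SMG9 was the factor closest to H3K9 methylation, 45.0 kb from a control H3K9me3 domain and 85.0 kb from an H3K9me2 domain. No promoter window printed above lay in a domain of any list.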

How the data were processed

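RNA libraries from HCT116 cells were grouped by the labels, and the 9 factors were matched by symbol. The authors deposited raw read counts per gene symbol as whole numbers, as 1 table of 8 libraries and 2 tables of Scramble libraries. For the 8 libraries the submitters' processing notes name STAR 2.7.1a, featureCounts and Subread 2.0.6 with hg38, and for the Scramble libraries STAR, featureCounts and DESeq2 with hg19 and hg38. Annotation and strand setting are not given in the sources used here. The authors also deposited a score for each domain of lamin B1 and histone marks. Its scale and caller are not given in the sources used here. The notes name fastp 0.23.2, Bowtie2 2.5.1 and deepTools 3.1.3 with hg38 for those samples.

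Counts were filtered with filterByExpr by group, normalised by TMM and tested in edgeR 4.0.16 (R 4.3.3, limma 3.58.1) with kit and siRNA as terms. P-values were adjusted by Benjamini-Hochberg over all genes tested (threshold 0.05), and DESeq2 1.42.0 was an alternative. Scramble was compared on 25527 shared gene names. HNRNPK was also compared by an exact permutation test. Gene positions, promoter windows and symbols came from RefSeq GRCh38.p14, and overlap with a domain meant any base of the gene body. The members and gene lists were chosen with earlier results of these data known, and values of some listed genes are not reported here. Named genes were the 9 factors, HNRNPK, the 4 called genes with the largest absolute log2 fold change in each list, the counted SMG1P pseudogenes, and the 3 genes nearest to each of the 2 factors with the largest differences.

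Libraries of the same replicate number deviated together from their group means (r over genes, which do not replicate each other, was 0.13, 0.488, 0.4 and 0.321 in replicates 1 to 4). The replicate number also carries the kit, and with the kit removed r was -0.197, -0.153, -0.295 and -0.263. Removing kit and siRNA by a fit to 8 libraries itself makes r negative between unrelated libraries of the same kit. These values therefore cannot show whether libraries of the same replicate number were paired. Alternatives were other normalisations, tests, filters, kit terms, a replicate block, single kits, other controls and each library left out. The fit was tested on simulated data. Of 100 genes changed by a log2 of 1 among 13933 in the knockdown comparison 93 were recovered, and of 100 changed by 0.5, 73, with 5 unchanged genes called. For the interaction these were 77 and 36, so an interaction of that size can be missed at this depth. Only those genes were changed in the simulated data, whereas 71.5% of genes were called in the real knockdown comparison. The adjusted threshold is stricter where few genes change, so the recovered and false calls of the knockdown simulation need not carry over. Figures were drawn in Python 3.11.15 with matplotlib 3.10.9.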

Additional observations from a re-analysis of the deposited data

How the results depend on the processing

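The knockdown differences of UPF1, UPF2, UPF3B, SMG1, SMG5, SMG6 and SMG8 kept their direction under all 19 alternatives. Over all 9 factors, 165 of 171 alternative values stayed on the same side of the threshold, 4 no longer passed and 2 changed sign. All 9 factors were called with a replicate block in place of kit, 6 higher and 3 lower, beside 70.9% of all genes. All 9 were also called without each library in turn, beside 67.9% to 70.9% of all genes. The blocked fit changed no call of a factor, and it called 13 instead of 14 decay effectors and 10 instead of 11 PIK-like kinases and assembly genes. HNRNPK had log2 ratios from -2.29 to -2.06 when 1 library was left out, each with an exact permutation p of 0.0571, the smallest that 3 against 4 libraries allow.

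With Scramble in place of siNTC5, the log2 fold change changed sign for UPF3A (0.13), SMG9 (0.25), NCBP1 (0.28), NCBP2 (-0.067), DIS3L (0.27), MTOR (0.044), TELO2 (0.069) and SMG1P7 (0.48). The interaction called 1 factor, UPF3A, under upper-quartile normalisation and 1 with no filter on low counts, and 0 to 1 without 1 library. Between kits 1 factor was called in the siNTC5 libraries alone, beside 15.9% of all genes, and 4 in the siHNRNPK libraries alone, beside 23.2%. With 1 library left out, 2 to 5 factors were called, beside 2891 of 14214 to 4539 of 14092 genes. In the siNTC5 libraries alone the kit difference was 0.20 for UPF3A and 0.059 for SMG6. Small values changed sign elsewhere. Without 1 library the interaction ran from -0.18 to 0.019 for SMG9 and from -0.034 to 0.096 for SMG1, and the kit difference of SMG6 from -0.057 to 0.0067. Scramble against siNTC5 gave UPF1 -0.055 under upper-quartile normalisation, -0.022 without the kit term and -0.034 to 0.086 without 1 library. It gave SMG8 0.0012 with no filter, 0.073 without the kit term and -0.10 to 0.034 without 1 library. The cause of these changes was not tested. UPF3A and SMG6 had the fewest reads among the factors in knockdown libraries, 182 to 329 and 256 to 381 counts.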
